A study of Mus musculus with 3 samples.

Results

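Lysosome and autophagy genes were examined in CT26.WT, a mouse colon carcinoma line, after exposure to recombinant S100a8 or S100a9. The set held 40 genes named by function: MiT/TFE transcription factors, lysosomal membrane proteins, cathepsins and other peptidases, glycosidases and related enzymes, and the proteins that start, build and load autophagosomes. Its members were all probe sets whose only gene symbol in the platform annotation was 1 of these 40, which gave 96 of the 45101 probe sets on the array. They covered 38 genes. Cd63 and Optn are not reported here, and Ctsh lay at 25.9 and 23.2 in the S100a8 and S100a9 cultures and at 24.8 in the control, below the median of all signals (75.97), which served as a floor for dim values. The remaining 37 members were compared, out of 11138 genes in all.

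Each group was a single culture on a single Affymetrix whole-genome mouse expression array. The S100a8 and S100a9 cultures went without serum for 12 h and were then given 4 µg/ml of recombinant mouse S100a8 or S100a9 for 24 h, per the labels. The control received no S100 protein; its title names bovine serum albumin and its description saline, and the labels say neither how long it went without serum nor how long it was exposed. With 1 array per group there is no replicate, no error and no test, the number of arrays limits the precision, and the comparisons of S100a8 and of S100a9 with control share the same control array.

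Lysosomes are acidic organelles in which cathepsins, glycosidases and lipases break down material from endocytosis and autophagy. Autophagy wraps cytoplasm in a double membrane whose growth needs the ULK1 kinase, the Beclin-1 lipid kinase complex and the lipid-linked ATG8 proteins. TFEB, TFE3 and MITF bind E-box elements near the start of many of these genes, and mTORC1 at the lysosome surface keeps TFEB and TFE3 in the cytoplasm in fed cells. S100a8 and S100a9 are calcium-binding proteins released mainly by myeloid cells.

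Signals are MAS5 probe set intensities in arbitrary units and differences are log2 ratios of them. The median signal was 78.6 with S100a8 and 73.6 with S100a9, against 76.1 in the control. Of 10 epithelial and colon markers with a probe set, 6 lay below the floor on all arrays, among them Cdh1 and Vil1. Krt18, an epithelial keratin, had signals of 1032 with S100a8 and 1236 with S100a9, against 1447 in the control, and Epcam had 112.9 and 85.5 against 101.2. Krt20 had 307 with S100a8 and 325 with S100a9, against 326 in the control. Cdx2 was higher with both proteins, with 122.3 and 108.7 against 100.7. A gene with several probe sets was represented by its brightest one, to which values and ranks refer unless another probe set is named. Over all genes the ratios of probe sets of 1 gene had an SD of 0.22 in the S100a8 comparison with control, 0.18 in the S100a9 one and 0.18 between the proteins. In bulk RNA, fewer cells of a type and less RNA per cell cannot be told apart.

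The start windows of 3 members with the E-box letters CACGTG are shown first, because MiT/TFE factors can bind such letters. Binding of any factor to these windows was not measured. The windows run from 250 bases before to 50 bases after the RefSeq gene start (GRCm38.p6), each in the direction of transcription, with E-box letters in capitals. They are Lamp1 at chr8:13158911-13159210 on the plus strand, Mcoln1 at chr8:3500269-3500568 on the plus strand and Gla at chrX:134600956-134601255 on the minus strand.
Lamp1: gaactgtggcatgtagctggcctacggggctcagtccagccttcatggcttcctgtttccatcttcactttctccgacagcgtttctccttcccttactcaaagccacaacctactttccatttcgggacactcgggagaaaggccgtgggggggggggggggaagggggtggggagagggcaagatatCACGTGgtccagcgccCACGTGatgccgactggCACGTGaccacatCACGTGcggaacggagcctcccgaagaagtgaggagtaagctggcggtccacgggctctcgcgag
Mcoln1: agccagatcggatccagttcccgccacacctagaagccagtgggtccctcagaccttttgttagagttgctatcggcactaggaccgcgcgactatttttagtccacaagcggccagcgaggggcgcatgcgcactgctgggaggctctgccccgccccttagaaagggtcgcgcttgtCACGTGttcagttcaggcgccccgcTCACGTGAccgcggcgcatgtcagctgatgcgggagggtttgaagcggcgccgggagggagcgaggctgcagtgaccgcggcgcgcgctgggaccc
Gla: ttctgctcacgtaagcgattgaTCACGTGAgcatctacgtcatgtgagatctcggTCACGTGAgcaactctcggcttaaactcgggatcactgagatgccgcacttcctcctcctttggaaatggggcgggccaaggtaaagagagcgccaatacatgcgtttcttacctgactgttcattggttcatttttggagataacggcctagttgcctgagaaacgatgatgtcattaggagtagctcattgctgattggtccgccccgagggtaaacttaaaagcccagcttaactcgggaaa
Lamp1 encodes a major glycoprotein of the lysosomal membrane and holds 4 matches to CACGTG within 61 bases before its start. Mcoln1, a calcium channel of the lysosome, holds 2 such matches, of which 1 extends to TCACGTGA. Gla, the galactosidase that trims globosides, holds 2 matches that both extend to TCACGTGA.

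Start windows were found in RefSeq for 34 of the 40 members, with 42 windows in all. The E-box core CACGTG, searched on both strands, occurred in the windows of 9 of these 34 genes (26.5%), against 8.09% of all 27025 genes with a window. Those members were Lamp1, Mcoln1, Ctsa, Ctsd, Ctsl, Gla, Atg3, Atg5 and Atg7, so both the degradative and the autophagosome-building members were among them. The longer form TCACGTGA, every match of which contains the core, was found in Mcoln1, Ctsa, Ctsd, Gla and Atg3, in 11.9% of the 42 member windows against 0.974% of 32851 windows of all genes. The AP-1 letters TGANTCA were found in Tfe3, Cd68, Neu1 and Psap, in 9.52% of member windows against 7.81% of all windows. A match is a description of letters, not of a bound site, and no match says only that the letters are not in that window.

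**Figure D1:**
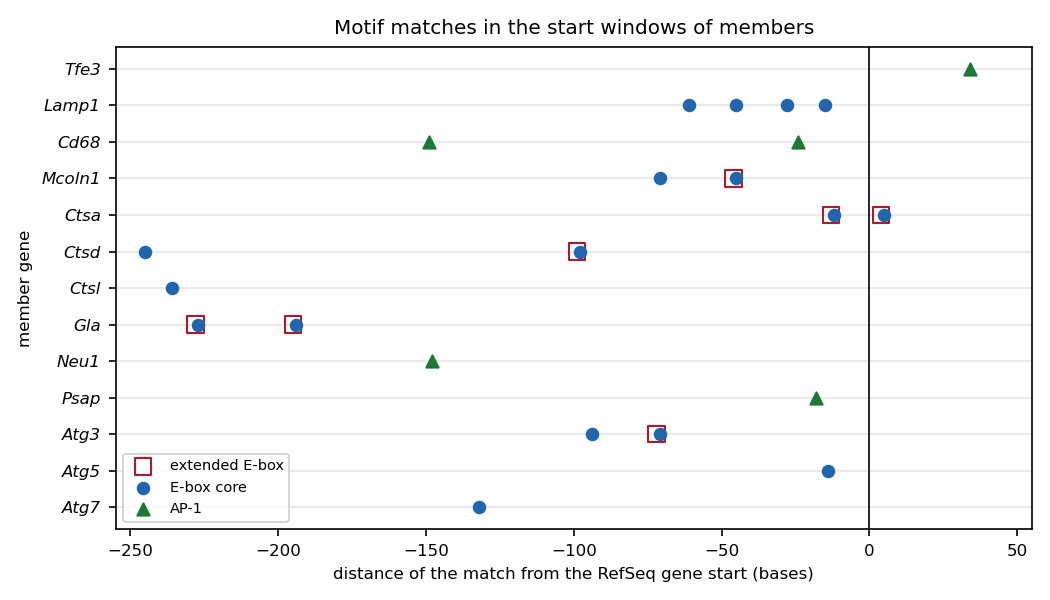
Distance in bases of each motif match from the RefSeq gene start (vertical line; negative is before the start) for the 13 members with a match. Circles mark CACGTG, open squares TCACGTGA and triangles TGANTCA on either strand; the 4 Lamp1 matches lie between 61 and 15 bases before the start.

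The set as a whole lay close to control with either protein. With S100a8, 19 members were higher and 18 lower than control, with a median log2 ratio of 0.006, while 52.5% of all compared genes were higher and their median was 0.01. With S100a9 the split was again 19 higher and 18 lower, with a median of 0.007, against 51.2% higher and a median of 0.005 for all genes. In the direct comparison of S100a9 with S100a8, 20 members were higher and 17 lower, with a median of 0.009, against 54.9% higher and a median of 0.02 for all genes. The middle 50% of members lay between −0.11 and 0.13 for S100a8 and between −0.06 and 0.14 for S100a9, where all genes lay between −0.13 and 0.16 and between −0.11 and 0.11.

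Few members differed by even 0.322 on the log2 scale, the smaller of the sizes counted. In the S100a8 culture Cd68 and Ctss were at least 0.322 higher than control (2 of 37, with 9.48% of all genes that much higher) and Gabarapl1 and Tfe3 at least that much lower (2 of 37, with 8.01% of all genes). In the S100a9 culture Cd68, Gusb and Atg7 were at least 0.322 higher (3 of 37, against 3.23% of all genes) and Gabarapl1 lower (1 of 37, against 5.04%). Between the proteins, 0 members were at least 0.322 higher with S100a9 (2.00% of all genes) and Ctss was lower (1 of 37, against 7.82%). At 1.5-fold, Cd68 was higher with S100a8 (1.13% of all genes) and 0 members were lower (1.91%). No member reached 1.5-fold with S100a9, where 0.251% of all genes were higher and 0.853% lower than control, or between the proteins, where 0.0988% were higher and 1.01% lower. In all, 31 of 37 members lay within 0.322 in every comparison, Mcoln1 only just (0.321 for S100a9 against S100a8). That joint share was not counted over all compared genes, so it has nothing to be set beside. Taken singly, 89.2% of members lay within that size with S100a8, 89.2% with S100a9 and 97.3% between the proteins. For all compared genes the shares were 82.5%, 91.7% and 90.2%. Ratios varied less among bright genes, and 19 of the 37 members were in the brightest of 4 equal classes of compared genes, where the SD of the log2 ratios over genes was 0.17 for S100a8 and 0.14 for S100a9, against 0.30 and 0.21 in the dimmest class.

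**Figure D2:**
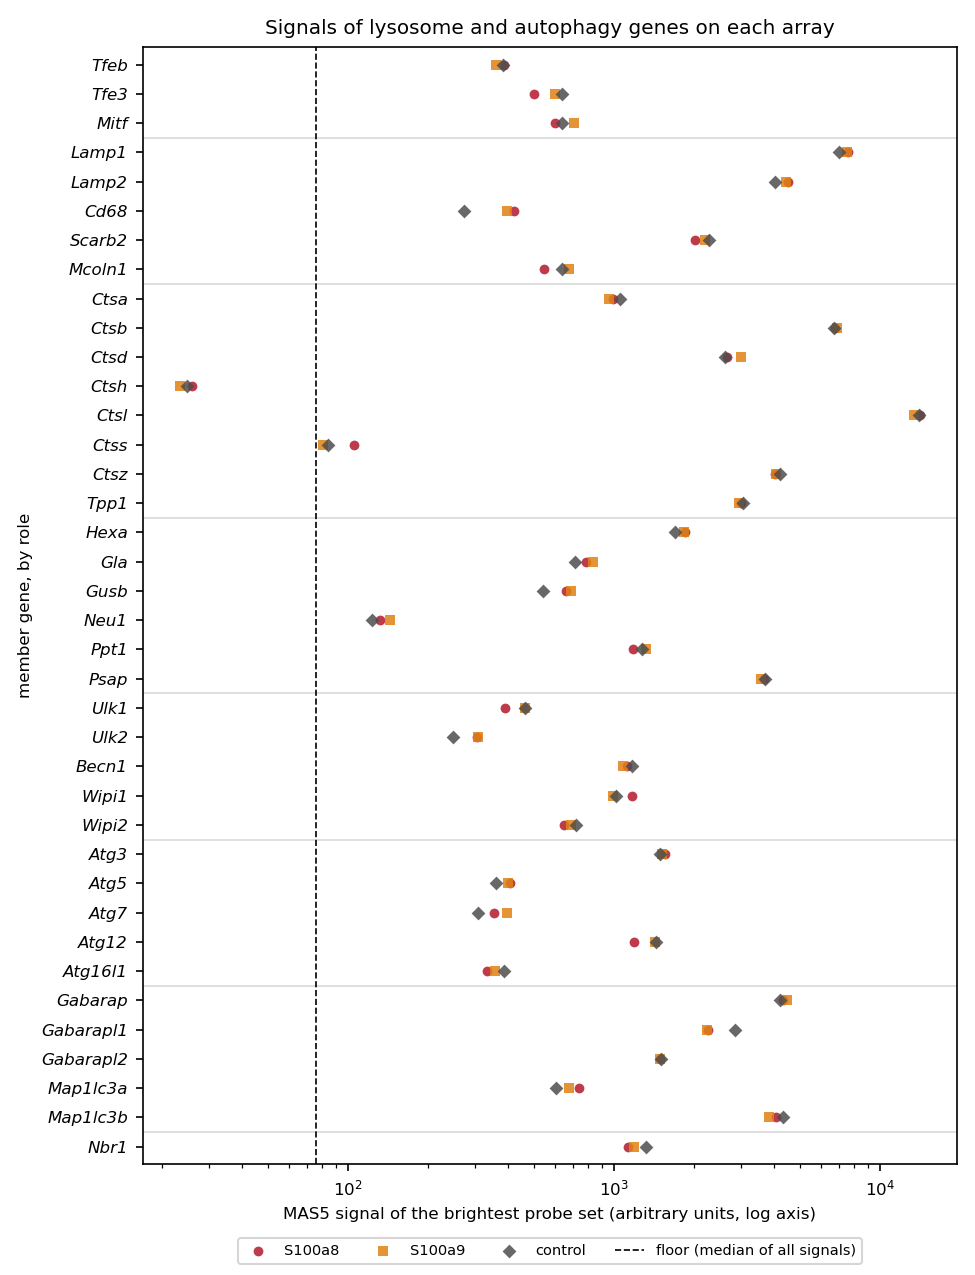
MAS5 signal (log axis, arbitrary units) of the brightest probe set of 38 members on each of the 3 arrays, ordered by role, with the floor of 75.97 as a dashed line. The 3 symbols of most members overlap or nearly do; Cd68 stands out with signals of 422 and 396 against 273 on the control array, and Ctsh is the member below the floor.

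Among the transcription factors, Tfeb, the main activator of lysosomal genes in starved cells, had signals of 385 with S100a8 and 359 with S100a9, against 383 in the control. Tfe3, which shares its target sites, had 501 and 600 with S100a8 and S100a9, against 635 in the control. Tfe3 was 1.27-fold lower with S100a8 (log2 ratio −0.34) and close to control with S100a9 (−0.08). Mitf, known best from pigment cells, had 602 with S100a8 and 705 with S100a9, against 639 in the control, which gave log2 ratios of −0.09 and 0.14, and its second probe set gave 0.09 and 0.26. Between the proteins, Tfe3 and Mitf were 0.26 and 0.23 higher on the log2 scale with S100a9 than with S100a8, and Tfeb was 0.10 lower (−0.10).

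The members that hold the E-box core in their window had median log2 ratios of 0.07 with S100a8 and 0.11 with S100a9. In each comparison 7 of 9 were higher than control, beside 52.5% of all compared genes with S100a8 and 51.2% with S100a9. Some of the 7 differed little from control, such as Ctsl (0.02) and Ctsd (0.03) with S100a8 and Atg3 (0.02) with S100a9. Of the 23 compared members with a window and no such letters, 10 were higher with S100a8 and 10 with S100a9, with medians of −0.02 and −0.03. The 7 include Gla, whose probe sets disagree, as described below with its values. Of the members with the longer TCACGTGA form, 3 of 5 were higher with S100a8 (median 0.03) and 4 of 5 with S100a9 (0.09), against 14 and 13 of the 27 members without it (0.007 and −0.01). Of the members with the AP-1 letters, 2 of 4 were higher with each protein, with medians of 0.04 and 0.09. Of the 28 without them, 15 were higher with each protein, with medians of 0.01 and 0.01. No test was made of these differences. Lamp1, printed above, had signals of 7596 with S100a8 and 7536 with S100a9, against 7001 in the control (log2 ratios 0.12 and 0.11). Mcoln1 had 544 and 679 with S100a8 and S100a9, against 638 in the control (−0.23 and 0.09). Its other probe sets gave −0.14 and 0.07 with S100a8, and −0.04 and 0.02 with S100a9, so its direction differed between probe sets with both proteins.

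Lysosomal membrane proteins were led by Cd68, a heavily glycosylated late endosomal protein abundant in macrophages. Its signal was 422 with S100a8 and 396 with S100a9, against 273 in the control. Both treated arrays lay above the control, 1.54-fold with S100a8 (log2 ratio 0.63) and 1.45-fold with S100a9 (0.53), and they differed little from each other (S100a9 against S100a8, −0.09). This was the highest ratio of any member against control in either comparison. Over the 9 alternative settings of processing the Cd68 ratio lay between 0.58 and 0.67 for S100a8 and between 0.52 and 0.58 for S100a9. The lowest S100a8 value, under median centring, is just short of 1.5-fold. A higher or lower floor, keeping dim genes and the choice of probe set could not shift a single probe set this bright. The range comes from median centring, quantile normalization and centring by brightness. Cd68 has 1 probe set above the floor, so no second one of its own was there to set beside it. Its start window at chr11:69666121-69666420 on the minus strand (GRCm38.p6, RefSeq) is shown because Cd68 differed most, with the AP-1 letters TGANTCA in capitals at 149 and 24 bases before the start.
Cd68: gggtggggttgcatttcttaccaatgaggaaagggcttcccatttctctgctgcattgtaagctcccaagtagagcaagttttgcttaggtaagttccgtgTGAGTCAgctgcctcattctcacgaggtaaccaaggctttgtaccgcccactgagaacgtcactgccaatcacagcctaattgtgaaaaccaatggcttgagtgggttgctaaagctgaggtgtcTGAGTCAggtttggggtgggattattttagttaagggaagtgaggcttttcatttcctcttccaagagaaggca
Cd68 is also used as a macrophage marker, so other such markers were read beside it. Of 17 macrophage and granulocyte markers with a probe set, 11 were below the floor on all arrays, among them the leukocyte marker Ptprc and the myeloid markers Adgre1, Itgam, Tyrobp and C1qa. The summed signals of the whole marker list were 2404 with S100a8 and 2609 with S100a9, against 2496 in the control. Cd14 was the largest term, and without it the sums were 1330 with S100a8 and 1192 with S100a9, against 1083 in the control, a split made after the values were seen. Of the 6 compared, 5 were higher and 1 lower with S100a8, and 5 were higher with S100a9, beside 52.5% and 51.2% of all compared genes. Fcer1g, counted among those higher with S100a8, had 98.9 there against 72.3 in the control. It lay above the floor on the S100a8 array only and was compared only through that array, so its direction was fixed by the filter. Csf1r, the receptor for macrophage colony-stimulating factor, had 370 and 313 with S100a8 and S100a9, against 267 in the control, and Cd53, a leukocyte tetraspanin, had 187 and 202 against 135. Cd14, a co-receptor of Tlr4, had 1075 and 1418 with S100a8 and S100a9, against 1413 in the control. Higher with S100a8 were also 3 of 3 compared lymphoid and 3 of 3 endothelial markers, with medians of 0.36 and 0.27. Of the epithelial and colon markers 2 of 4 were higher, and of the fibroblast markers 0 of 6. With S100a9 the counts were 2 of 3, 2 of 3, 1 of 4 and 1 of 6. The myeloid markers Lyz2 and Laptm5 lay near 102 in the control. Dim genes ran high with S100a8, with a median of 0.14 in the dimmest class. The part of myeloid transcripts in the Cd68 difference was not tested.

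Lamp2, the second major glycoprotein of the lysosomal membrane and the receptor of chaperone-mediated autophagy in one of its isoforms, had signals of 4502 with S100a8 and 4439 with S100a9, against 4024 in the control. All 4 of its probe sets above the floor were higher with both proteins, by 0.09 to 0.32 with S100a8 and by 0.10 to 0.20 with S100a9 on the log2 scale. Scarb2, which carries glucocerebrosidase to lysosomes, had 2015 and 2200 with S100a8 and S100a9, against 2283 in the control. Its direction was not settled, because its brightest probe set gave −0.18 and −0.05 and its other one 0.18 and 0.30 for S100a8 and S100a9 against control. Over the 5 compared membrane proteins the medians were 0.12 with S100a8 and 0.11 with S100a9.

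The peptidases lay close to control. Ctsb, a cysteine cathepsin, had signals of 6776 with S100a8 and 6929 with S100a9, against 6749 in the control, although its further probe sets ran from −0.51 to 0.22 with S100a8. Ctsl, another cysteine cathepsin, had 14160 and 13470 with S100a8 and S100a9, against 14003 in the control. Ctsd, the main aspartic protease of lysosomes, was 0.20 higher on the log2 scale with S100a9 (2993 against 2614 in the control) and 0.03 higher with S100a8 (2665). Ctss, a cathepsin of antigen-presenting cells, was the exception in the S100a8 culture, with a signal of 105.2 with S100a8 and 80.5 with S100a9, against 83.8 in the control. That made it 0.33 higher than control on the log2 scale with S100a8 and 1.31-fold lower with S100a9 than with S100a8, at signals just above the floor. Over all genes, the dimmest class had a median log2 ratio of 0.14 for S100a8 against control and −0.12 for S100a9 against S100a8. With ratios centred by brightness, Ctss was 0.13 higher than control with S100a8 and lower by less with S100a9 than with S100a8 (−0.20), both short of 0.322. On the brightest probe sets the lowest peptidase against control in both comparisons was Ctsa, the carboxypeptidase that protects neuraminidase, with 988 and 958 with S100a8 and S100a9, against 1053 in the control (−0.09 and −0.14). Its second probe set gave 0.04 and −0.10. Ctsz and Tpp1, an exopeptidase and a tripeptidase, lay between −0.06 and −0.02 on their brightest probe sets. The second probe set of Tpp1 was lower, at −0.28 with S100a8 and −0.19 with S100a9, and the others of Ctsz ran from −0.12 to 0.04 over both comparisons. The 7 compared peptidases had medians of 0.006 with S100a8 and −0.05 with S100a9.

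Of the 6 glycosidases, thioesterase and saposin members, 4 were higher with S100a8 and 5 with S100a9, with medians of 0.11 and 0.17. Of all compared genes, 52.5% and 51.2% were higher, with medians of 0.01 and 0.005. Both counts include Gla, whose probe sets disagree, and the S100a9 count includes Ppt1 at 0.05. Gusb, the beta-glucuronidase, had signals of 657 with S100a8 and 691 with S100a9, against 540 in the control. It was 1.22-fold higher with S100a8 and 1.28-fold higher with S100a9. Neu1, the sialidase, had 132 and 144 with S100a8 and S100a9, against 123 in the control (0.10 and 0.23). Hexa, the alpha chain of hexosaminidase, had 1853 and 1836 against 1699 (0.13 and 0.11). Gla, whose window is printed above, had 782 with S100a8 and 833 with S100a9, against 714 in the control on its brightest probe set (0.13 and 0.22). Its second probe set gave the opposite, with 174 and 203 against 334 (−0.95 and −0.72), so the direction of Gla was not settled by this array. On the brightest probe sets the lowest of the group was Ppt1, a thioesterase that removes palmitate from proteins, with S100a8 (1180 against 1271, −0.11) and Psap, the precursor of the saposins, with S100a9 (3567 against 3711, −0.06). The second probe set of Psap gave −0.26 with S100a8 and −0.15 with S100a9.

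**Figure D3:**
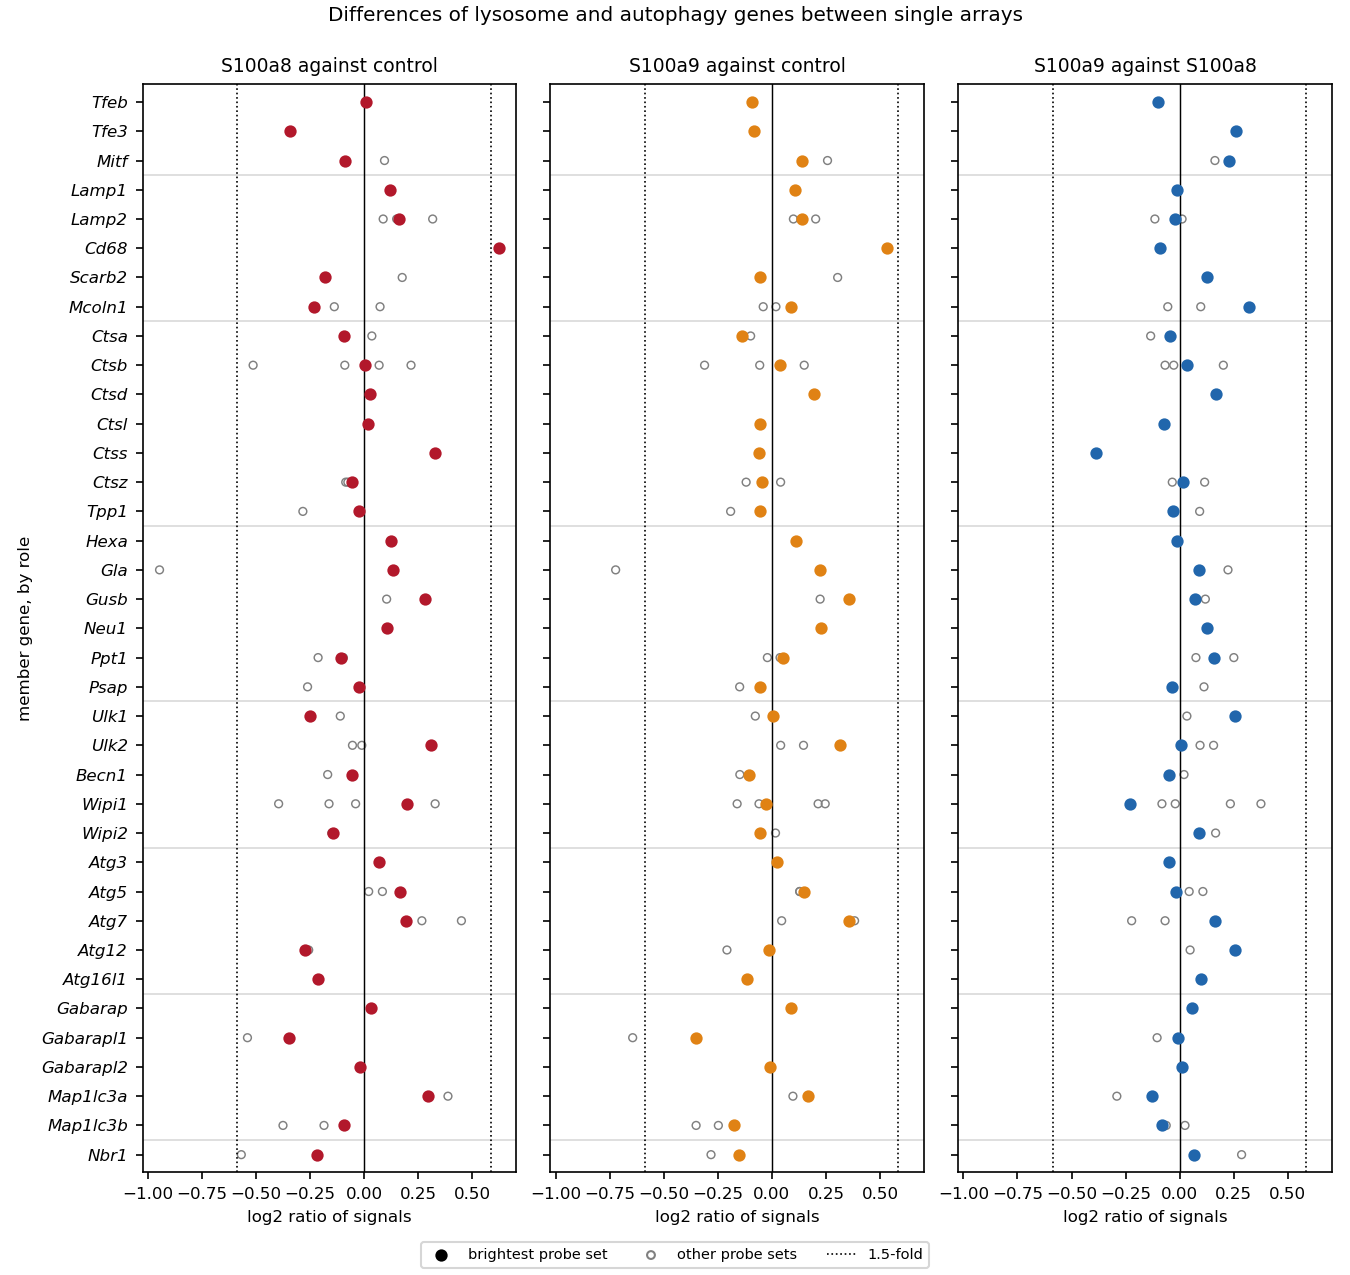
Log2 ratio of signals for 37 compared members for each protein against control and for S100a9 against S100a8, by role; filled points are the brightest probe set, open circles the other probe sets above the floor and dotted lines 1.5-fold. Cd68 lies highest among the filled points against control, at 0.63 and 0.53, and the second probe set of Gla lies lowest at −0.95 and −0.72, opposite to its brightest one.

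The genes that start autophagosome formation pointed in different directions. Ulk1, the kinase at the head of the pathway, had signals of 388 with S100a8 and 464 with S100a9, against 462 in the control (log2 ratios −0.25 and 0.01), and its second probe set gave −0.11 and −0.08. Its relative Ulk2 went the other way, with 306 and 307 against 247, and was 0.31 higher with each protein, but its other probe sets gave −0.05 and −0.01 in the S100a8 culture, and 0.04 and 0.15 in the S100a9 one. Becn1, the scaffold of the Beclin-1 lipid kinase complex, had 1121 and 1083 with S100a8 and S100a9, against 1167 in the control (−0.06 and −0.11). Wipi2, which binds the lipid that complex makes and recruits Atg16l1, gave −0.14 and −0.05. For Wipi1, a protein of the same family, the 5 probe sets above the floor ran from −0.39 to 0.33 with S100a8.

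Among the conjugation enzymes, Atg7, the E1-like enzyme that activates both Atg12 and the ATG8 proteins, had signals of 353 with S100a8 and 395 with S100a9, against 309 in the control. It was 1.28-fold higher with S100a9 (log2 ratio 0.36) and 0.19 higher with S100a8, and all 3 of its probe sets above the floor were higher with both proteins. Atg5, which Atg12 is joined to, had 405 and 400 against 361 (0.17 and 0.15), again with all 3 probe sets higher. Atg3, the E2-like enzyme of the ATG8 reaction, stayed near control (0.07 and 0.02). Atg12 had 1192 with S100a8 and 1425 with S100a9, against 1441 in the control, which gave log2 ratios of −0.27 and −0.02. Its second probe set was lower with both proteins (−0.26 and −0.21). Atg16l1, which directs the reaction to the membrane, had 333 and 357 against 386 and was lower with both (−0.21 and −0.11).

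The ATG8 family split by gene. Gabarapl1, a member of the GABARAP branch that is joined to the autophagosome membrane, had signals of 2255 with S100a8 and 2245 with S100a9, against 2864 in the control. It was lower in both treated cultures, 1.27-fold with S100a8 and 1.28-fold with S100a9, and S100a9 against S100a8 gave −0.01. Its second probe set showed the same order, with 987 and 918 with S100a8 and S100a9, against 1434 in the control (−0.54 and −0.64). Map1lc3b, the LC3 protein used most often as an autophagosome marker, had 4051 with S100a8 and 3825 with S100a9, against 4321 in the control. Its log2 ratios were −0.09 and −0.18 on that probe set, and its other probe sets above the floor were lower too, between −0.37 and −0.19 with S100a8 and between −0.35 and −0.25 with S100a9. Gabarap and Gabarapl2, of the same branch as Gabarapl1, stayed within 0.09 of control on the log2 scale. Map1lc3a, the other LC3 gene measured, lay the other way, with 740 and 677 with S100a8 and S100a9, against 603 in the control (0.30 and 0.17), and its second probe set was higher as well (0.39 and 0.10). Nbr1, a receptor that ties ubiquitin-marked cargo to ATG8 proteins, had 1134 and 1189 against 1319 (−0.22 and −0.15), and its second probe set was lower as well (−0.57 and −0.28).

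The start windows of Gabarapl1, at chr6:129532942-129533241 on the plus strand, and of Map1lc3b, at chr8:121590188-121590487 on the plus strand (GRCm38.p6, RefSeq), are shown. These ATG8 genes were picked because each had several probe sets above the floor, all lower with both proteins, where Gabarapl2 had only 1 (−0.02 and −0.01). Neither window holds CACGTG, TCACGTGA or TGANTCA, so no letters are in capitals.
Gabarapl1: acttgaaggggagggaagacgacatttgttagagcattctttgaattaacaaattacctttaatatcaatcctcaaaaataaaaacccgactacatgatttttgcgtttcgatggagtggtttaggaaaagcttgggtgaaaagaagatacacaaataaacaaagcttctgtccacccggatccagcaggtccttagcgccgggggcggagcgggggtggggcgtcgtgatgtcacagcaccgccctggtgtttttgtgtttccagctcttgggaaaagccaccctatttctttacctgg
Map1lc3b: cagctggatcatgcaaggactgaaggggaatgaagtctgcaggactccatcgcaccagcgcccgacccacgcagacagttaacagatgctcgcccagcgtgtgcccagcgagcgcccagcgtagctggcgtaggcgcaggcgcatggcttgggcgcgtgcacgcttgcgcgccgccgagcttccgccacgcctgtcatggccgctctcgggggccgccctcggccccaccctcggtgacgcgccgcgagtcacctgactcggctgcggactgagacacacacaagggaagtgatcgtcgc
That says nothing of any other stretch of these genes.

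**Figure D4:**
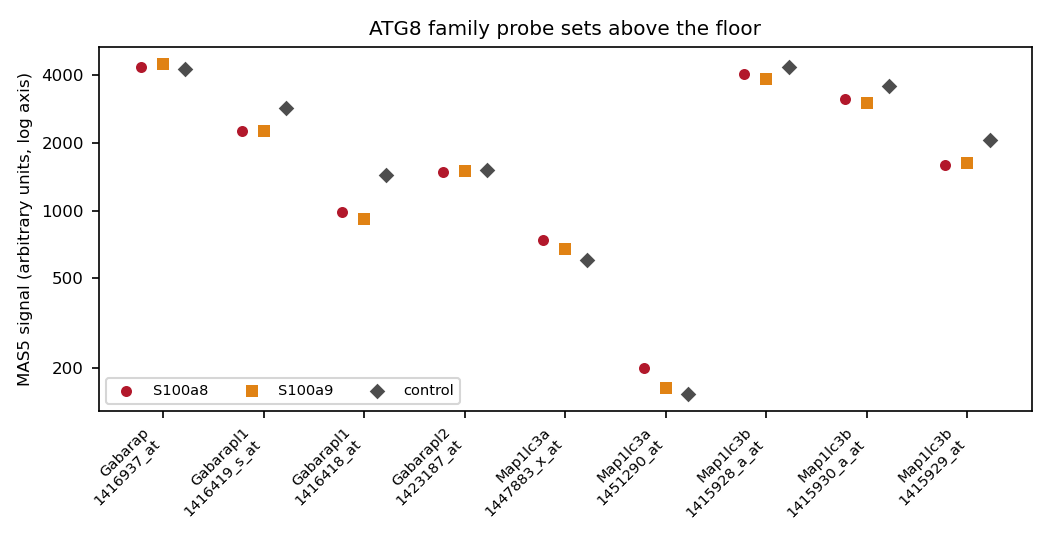
MAS5 signal (log axis, arbitrary units) on each of the 3 arrays for each ATG8 family probe set above the floor, labelled by gene and probe set. Both Gabarapl1 probe sets and all 3 Map1lc3b probe sets show the control array highest, both Map1lc3a probe sets show it lowest, and Gabarap and Gabarapl2 show little difference.

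Probe sets gave a check on direction within an array pair. Of 24 members with at least 2 probe sets above the floor, all probe sets pointed the same way in 16 with S100a8, against 52.5% of 4948 genes of that kind, and in 15 with S100a9, against 51.6%. In S100a9 against S100a8 it was 13 of 24, against 43.1%. The SD of ratios among probe sets of 1 member was 0.21, 0.16 and 0.13 in these comparisons.

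Other genes of the pathway were read from lists made of genes that are not members, with a call size of 1.5-fold. Beside these counts, 52.5% of all compared genes were higher and 47.5% lower with S100a8, and 51.2% and 48.1% with S100a9. At least 1.5-fold higher were 1.13% with S100a8 and 0.251% with S100a9, and at least that much lower 1.91% and 0.853%. Of 16 compared subunits of the V-ATPase, the proton pump that acidifies lysosomes, 8 were higher and 8 lower with S100a8, and 11 higher and 5 lower with S100a9, with 0 past 1.5-fold. The lowest was Atp6v0b (−0.26 and −0.20), and the highest were Atp6v1d with S100a8 (0.19) and Atp6v1a with S100a9 (0.27); 1 of the 3 Atp6v1d probe sets was lower with S100a8. Among 25 other lysosomal enzymes and lipid carriers, 18 were higher with S100a8 and 22 with S100a9, with medians of 0.07 and 0.15 and 0 past 1.5-fold. Hgsnat, an acetyltransferase of heparan sulfate breakdown, had signals of 928 with S100a8 and 948 with S100a9, against 696 in the control. Gm2a, the activator protein that presents gangliosides to hexosaminidase, had 308 and 315 against 231. The lowest of that list were Arsa, a sulfatase, with S100a8 (−0.24) and Dnase2a, the acid nuclease, with S100a9 (−0.17).

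Some autophagy genes outside the member list were further below control than any member on its brightest probe set. Of 23 other autophagy machinery genes, 16 were lower and 7 higher with S100a8, and 10 lower and 13 higher with S100a9. Of all compared genes, 47.5% were lower with S100a8 and 48.1% with S100a9. Atg101, a subunit of the ULK1 complex, had signals of 190 with S100a8 and 208 with S100a9, against 316 in the control. It was the 1 gene of the list past 1.5-fold in each comparison (1.66-fold and 1.52-fold lower), where 1.91% and 0.853% of all genes were that much lower. The highest were Atg10, the E2-like enzyme for Atg12, with S100a8 (0.37) and Rubcn, a brake on autophagosome maturation, with S100a9 (0.30). Of 8 other selective autophagy receptors, 5 were lower with S100a8 and 3 with S100a9, with 0 past 1.5-fold on the brightest probe set. Sqstm1, the p62 receptor that carries ubiquitin-marked cargo as Nbr1 does, had 3517 with S100a8 and 3611 with S100a9, against 5214 in the control (−0.57 and −0.53). Its second, dimmer probe set was lower by more than 1.5-fold with both proteins (113.5 and 124.8 against 224.3, −0.98 and −0.85). Wdfy3 with S100a8 (0.11) and Pink1 with S100a9 (0.14) were the highest of these receptors, although 1 of 3 Wdfy3 probe sets was lower. Of 18 compared genes of mTORC1 and its lysosomal regulators, 12 were lower with S100a8 and 7 with S100a9, and 0 were past 1.5-fold on the brightest probe set. The lowest were Tsc1 with S100a8 (−0.24) and Akt1s1 with S100a9 (−0.14), and the highest Rptor with S100a8 (0.35) and Lamtor1 with S100a9 (0.23). All 3 Lamtor1 probe sets were higher with both proteins. The dimmest of them gave 0.58 with S100a8 and 0.62 with S100a9, the latter past 1.5-fold. Of the 3 Tsc1 probe sets, 1 was higher with S100a8.

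**Figure D5:**
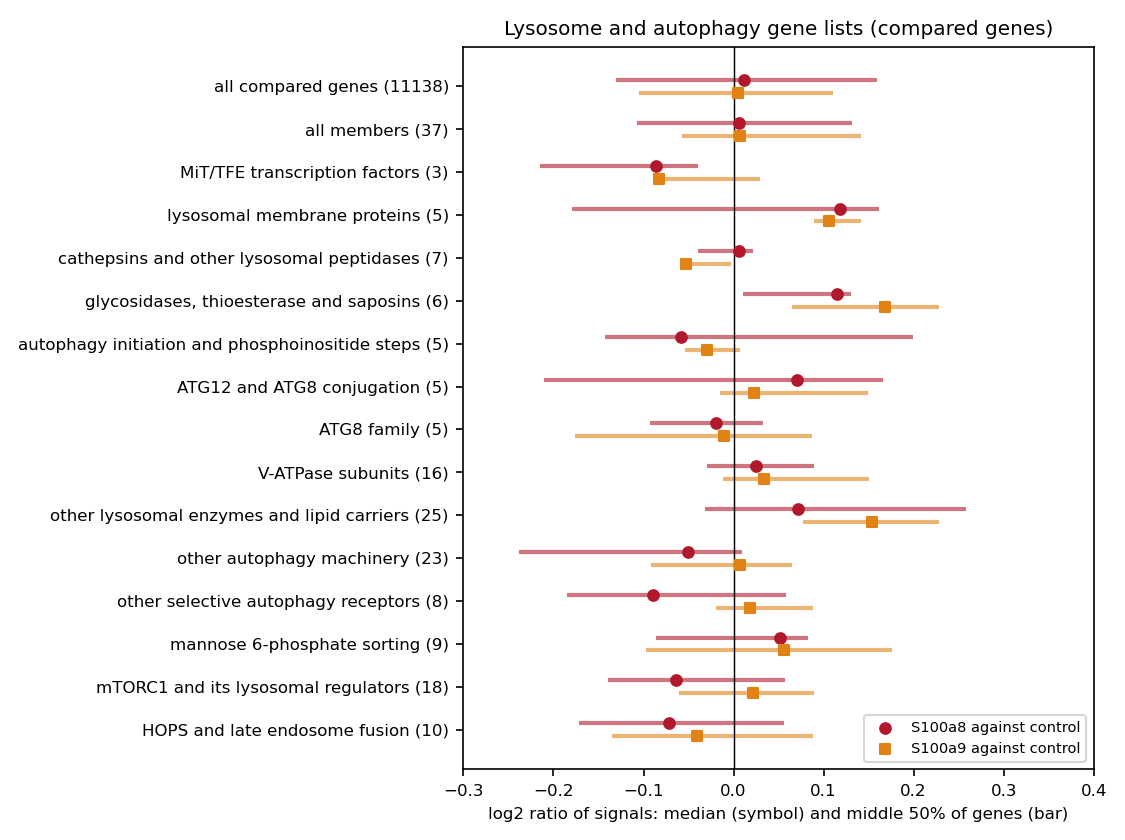
Median log2 ratio (symbol) and middle 50% of genes (bar) for each gene list against control, with the number of compared genes in brackets; circles are S100a8 and squares S100a9. All members centre at 0.006 and 0.007, next to all 11138 genes at 0.01 and 0.005, and the other lysosomal enzymes lie at 0.07 and 0.15.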

How the data were processed

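RNA of 3 CT26.WT cultures, grouped by the labelled agent, was measured on 1 array each. The deposited values are linear probe set intensities. They come from MAS5, per the submitters' processing notes, with version, scaling target and detection calls not given in the sources used here. Mismatch subtraction in MAS5 leaves dim values noisy, and a common scale hides a change in total RNA. The table held 45101 probe sets with values from 0.72 to 21962, of which 34945 had 1 gene symbol in the platform annotation, 932 several and 9160 were unlisted; 64 were AFFX controls. By Entrez number 34741 were matched to RefSeq (GRCm38.p6), and 0 symbols changed.

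Values under the 50th percentile of all signals (75.97) were set to it and log2 was taken. A gene was its brightest probe set by mean log2 intensity, and genes with a mean above that floor were compared (11138 of 18193 named genes). Log2 ratios and fold sizes between single arrays were computed here with Python 3.11.15, numpy 2.4.6 and pandas 2.3.3, drawn with matplotlib 3.10.9 and tested on simulated data. With 1 array per group there was no p-value. Sizes of 1.5-fold and of 0.322 on the log2 scale are descriptive. Alternatives were median centring, quantile normalization, centring in 20 brightness bins, a floor at the 30th or 65th percentile, log2(value + 1) without a floor, keeping dim genes, averaging a gene's probe sets, preferring probe sets that lack _x_at and _s_at endings, and sizes of 0.322 (log2) and 2-fold.

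The members and gene lists were chosen with earlier results of these data known. Any member could be named, with the highest and lowest gene of each other list against control and markers where a member is itself a marker. Start windows came from the RefSeq promoter table and the 3 motifs were searched on both strands.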

Additional observations from a re-analysis of the deposited data

How the results depend on the processing

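Without replicate arrays, no setting below measures the error of a ratio. Of 987 values of single members under 9 other settings of processing, 974 stayed within the spread of probe sets of 1 gene and 13 moved by more. Part of the 974 could not have moved, because changes of the floor leave bright members as they are. Those that moved included Gla (−0.27 with S100a8 and −0.17 with S100a9 as the mean of all its probe sets), Ctss, Ulk2, Wipi1 and Gabarapl1. The only ratio past 1.5-fold, that of Cd68 with S100a8, did not change sign. Smaller ratios did in some settings. Wipi1 with S100a8 kept its sign in 7 of 9 settings, and Atg5 between the proteins in 6 of 9. Median centring put the members' median at −0.0404 with S100a8 and 0.0553 with S100a9 against control, and at 0.10 between the proteins, beside −0.03, 0.05 and 0.11 for all compared genes. The mean of all probe sets gave −0.0247 for S100a9 against control, and centring by brightness gave −0.0223 for S100a9 against S100a8. The count of members at least 1.5-fold higher with S100a8 was 1; it was 0 under median centring and 0 at 2-fold, and 2 at a size of 0.322 (log2). At that size, 3 members were higher with S100a9, 2 lower with S100a8, 1 lower with S100a9 and 1 lower with S100a9 than with S100a8. Where probe sets lacking _x_at and _s_at endings were preferred, 1 member (Gabarapl1, −0.64) was at least 1.5-fold lower with S100a9. The cause of these changes was not tested. Signals near the floor, such as those of Ctss and Neu1, limit what can be read of dim members. No paired analysis was possible because each group held 1 array.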

Other observations

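Genes that deliver enzymes to lysosomes and fuse late endosomes with them lay near control. Beside the counts below, 52.5% of all compared genes were higher with S100a8 and 51.2% with S100a9. Of 9 mannose 6-phosphate sorting genes, 6 were higher with S100a8 and 6 with S100a9, with median log2 ratios of 0.05 and 0.06. Gnptab, the enzyme that makes the mannose 6-phosphate tag, was the highest with S100a8 (0.34) and Igf2r, a receptor of that tag, with S100a9 (0.29). Gga3, a sorting adaptor, was the lowest with S100a8 (−0.20) and Sort1, an alternative sorting receptor, with S100a9 (−0.24). Of 10 genes of the HOPS tether and late endosome fusion, 4 were higher and 6 lower with each protein, with medians of −0.07 and −0.04. Vamp8, a fusion SNARE, was the highest with both (0.40 and 0.23), Vps11, a HOPS subunit, the lowest with S100a8 (−0.33) and Vamp7, another SNARE, the lowest with S100a9 (−0.27). Of these, Vps11 and Sort1 had probe sets pointing both ways with both proteins, and Vamp7 with S100a8. All values are ratios between single arrays.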
